A study of Macaca mulatta with 20 samples.

Results

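The BCL2 family apoptosis regulators described here are the 8 genes BCL2, MCL1, BCL2A1, BCL2L11, BCL2L13, BID, BAD and BAK1, measured in whole blood of rhesus macaques (Macaca mulatta) before and after irradiation of the thorax. They were chosen by gene name, among probes that were well above background on at least 5 of 20 arrays. The array carries 16 probes for these genes, of 34127 in all, and 15 of the 16 passed this limit, of 19961 in all, which stand for 15929 gene names. The probe left out was the second BAD probe, which was well above background on 1 of 20 arrays, a day 5 array. Blood came from male animals of Chinese origin that received a single 10 Gy dose of X-rays to the whole thorax with no mitigator, and the labels speak of 8 non-human primates. Samples were taken before irradiation and at 2, 5 and 30 days after it, with 5 one-color Agilent Whole Human Genome arrays in each of the 4 groups. The groups thus share species, tissue, RNA stabilization and globin depletion, and the samples before irradiation are the only controls, so that time since the first sample and irradiation cannot be told apart. Arrays with the same replicate number were taken as a pair, since the methods state that comparisons were paired by animal. The methods also state that RNA of 2 animals was pooled in 1 case, and the labels used here give neither which array this was nor the age of any animal.

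Proteins of the BCL2 family decide whether the outer mitochondrial membrane is opened in a dying cell. BCL2, MCL1 and BCL2A1 hold the membrane closed by binding their pro-apoptotic relatives. The BH3-only proteins BCL2L11 (BIM), BID and BAD sense stress and bind these guardians, and BID and BCL2L11 can also activate the effectors directly. BAK1 is an effector that forms the pore through which cytochrome c leaves, and BCL2L13 is a mitochondrial relative linked to mitophagy. In blood, BCL2 is known for the survival of lymphocytes, MCL1 for that of neutrophils and many other cells, and BCL2A1 is an NF-kB target of activated myeloid cells.

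The probes are 60 bases long, stem from human transcripts, and the array annotation places them on the human genome build hg19. How well each one matches the macaque transcript was not tested. The sequences of the probes on which the results turn are shown as stretches of 30 bases, because probes of the same gene gave different readings and lie at different places of its transcripts. Capitals mark the polyadenylation signal AATAAA or the letters ATTTA of AU-rich elements, searched on the printed strand only. AATAAA occurred in 7.67% and ATTTA in 7.57% of all 34127 probes.
BCL2, variant alpha probe (bases 1 to 30): tggctgatattctgcaacactgtacacata
BCL2A1, upstream probe (bases 1 to 30): tgtaaccatatttgcatttgaaggtattct
BCL2A1, downstream probe (bases 1 to 30): aggaaagatctgtgaaatgctcttctgtcc
MCL1 (bases 1 to 30): tatcgttcttgatcataagccgcttATTTA
BCL2L11, variant 1 probe (bases 1 to 30): acttgtgttttgcactgatgaattttgaca
BCL2L11, variant 9 probe (bases 31 to 60): tatggtcattggtgattaAATAAAatgtat
BCL2L11, 5′ probe (bases 1 to 30): cctttcttggcccttgttcccccaaatgtc

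One BCL2 probe is named here for the transcript variant beta, the only variant its annotation lists, and the other for variant alpha. The variant alpha probe (A_23_P352266, printed in 10 spots) is at chr18:60790723-60790782 on the minus strand and starts at base 6288 of variant alpha. Whether the variant beta probe also reads variant alpha was not tested, so its name does not mean that it reads variant beta alone. The BCL2A1 probes start at base 448 (A_23_P152002, chr15:80263136-80263195) and base 664 (A_23_P321703, chr15:80253220-80253252 for 33 of its bases) of the same transcript, on the minus strand. The BCL2L11 probes are on the plus strand. The 5′ probe (A_33_P3398526, chr2:111878705-111878764) and the variant 9 probe (A_33_P3251932, chr2:111886352-111886411) start at bases 214 and 650 of variant 9, and the variant 1 probe (A_24_P122921, chr2:111925892-111925951) starts at base 4968 of variant 1. The MCL1 probe (A_24_P336759) is at chr1:150547622-150547681 on the minus strand.

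All levels are the log2 processed signal minus the 75th percentile of the same array, so that 0 is the 75th percentile, and levels of different probes are not compared. The share of spots well above background was 50.9% to 67.3% per array. Each of the 5 slides holds 1 array of every group, always at the same place for a group, so that place on the slide and group cannot be told apart. The markers set for whole blood were measured on these arrays. The exceptions were ELANE, MS4A1 and PAX5, whose probes were too dim, and FCGR3B and LYZ, for which no probe was analysed here. All 8 measured neutrophil markers were higher on average than before irradiation on every day, with a median log2 change of 1.02, 0.72 and 1.10 at days 2, 5 and 30. Of 14 T and NK cell markers, 14, 14 and 11 were lower, with medians of -0.68, -0.40 and -0.21. All 8 platelet markers were higher on average at days 2 and 5 and 2 of 8 at day 30, with medians of 1.49, 0.44 and -0.22, and of 7 erythroid markers 3, 4 and 1 were higher, with medians of -0.10, 0.07 and -0.85. The median over all tested probes was -0.02, 0.02 and 0.01. In a bulk blood sample, fewer cells of a type and less RNA per cell cannot be told apart.

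The groups were compared in pairs by limma, in which the replicate number entered as a block. Probes were called where the p-value was under 0.005 and the FDR (Benjamini-Hochberg) under 10%, the thresholds of the methods. At these thresholds the study, with its own processing, reported many more changed genes on each day than the probes called here. At day 2, 0 of the 15 BCL2 family probes were called (0.0551% of all tested probes), 0 had a p-value under 0.005 (2.66% of all) and 4 had one under 0.05 (14.8% of all), which were the probes of BCL2A1 and BID. At day 5, 0 were called (0% of all), and the same 2 probes, both of BCL2A1, had a p-value under 0.005 (1.61% of all) and under 0.05 (11.4% of all). At day 30, 0 were called (0.02% of all), 3 had a p-value under 0.005 (3.14% of all) and 5 had one under 0.05 (17.5% of all). The 3 were both BCL2A1 probes and the variant beta probe of BCL2. A paired test run probe by probe, without borrowing spread from other probes, called 0 of the 15 on each of these days. Of all 19961 tested probes it called 0, 1 and 1. Over the 15 probes the changes had a median of 0.13, 0.07 and 0.07 at days 2, 5 and 30, beside the -0.02, 0.02 and 0.01 of all tested probes, and 11, 9 and 11 of them were above 0.

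Between the days, 0 of 15 probes were called in any comparison. From day 2 to day 5 the background was 0% called, 0.286% under 0.005 and 3.47% under 0.05, and no BCL2 family probe passed any of these limits. From day 2 to day 30 (0.0551% of all probes called), 1 probe had a p-value under 0.005 (1.5% of all) and 2 had one under 0.05 (13% of all). From day 5 to day 30 (0% called), 0 probes had a p-value under 0.005 (0.621% of all) and 2 had one under 0.05 (8.31% of all). In both of these comparisons the 2 were the variant beta probe of BCL2, lower at day 30, and the variant 1 probe of BCL2L11, higher at day 30. For no probe and in none of the 6 comparisons were the 5 arrays of one group all above or all below the 5 of the other. That was so for 1.55%, 0.611% and 2.08% of all tested probes at days 2, 5 and 30 against pre-irradiation, and for 0.125%, 1.81% and 0.632% from day 2 to day 5, day 2 to day 30 and day 5 to day 30.

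**Figure D1:**
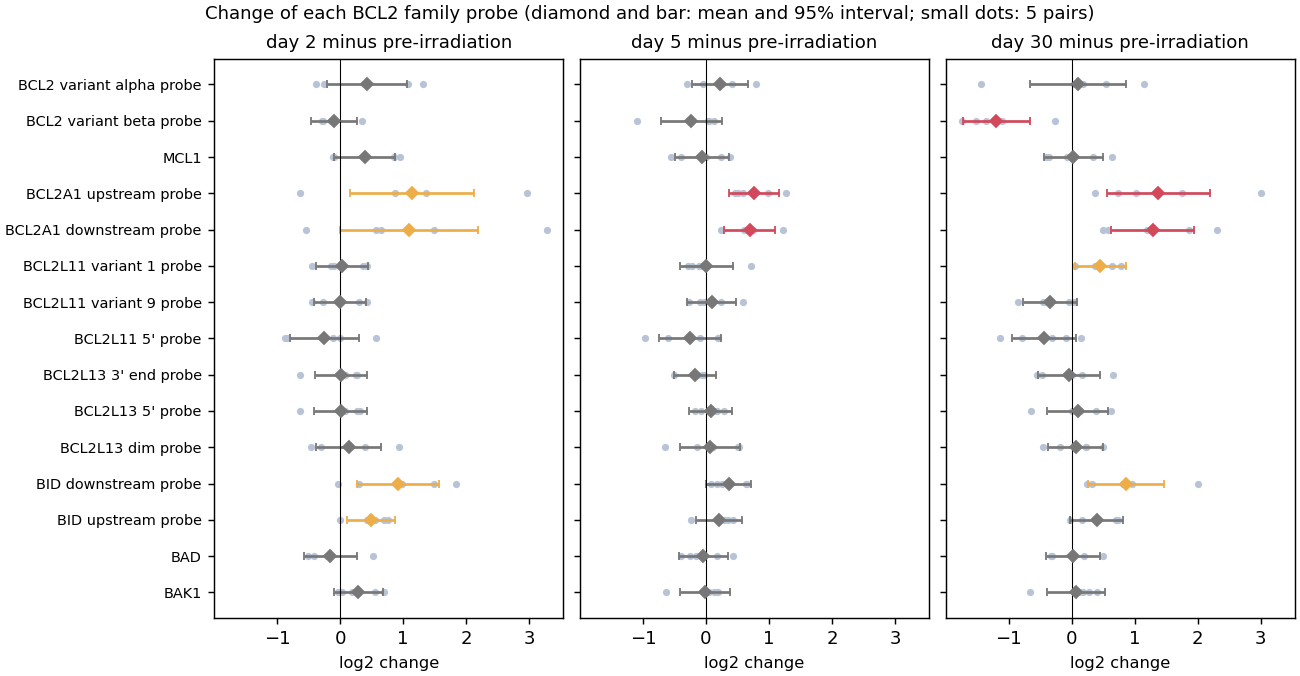
Log2 change of each BCL2 family probe from pre-irradiation at 2, 5 and 30 days (x axis), with 1 row per probe. Diamonds and bars give the mean and 95% interval from limma, small dots the 5 pairs, red a p-value under 0.005 and orange one from 0.005 up to 0.05. Both BCL2A1 probes lie to the right on every day, and the variant beta probe of BCL2 lies to the left of 0 at day 30, with a 95% interval of -1.73 to -0.66.

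BCL2A1 was higher after irradiation in every pair at days 5 and 30, and in 4 of 5 pairs at day 2. Its upstream probe had levels of 1.78, 1.93, -0.31, 0.32 and 2.12 before irradiation in replicates 1 to 5. They were 2.91, 1.30, 2.65, 1.69 and 3.0 at day 2, 2.24, 2.51, 0.20, 1.60 and 3.10 at day 5, and 4.79, 2.30, 0.71, 2.07 and 2.86 at day 30. Replicates 3 and 4 were the lowest before irradiation and replicate 1 at day 30 the highest of all, so that the groups overlap widely while most pairs point the same way. The change was 1.14 at day 2 (SE 0.43, 2.21-fold, adjusted p = 0.284 from limma), with pair differences from -0.63 in replicate 2 to 2.96 in replicate 3. At day 5 it was 0.76 (SE 0.17, 1.70-fold, adjusted p = 0.288) and at day 30 it was 1.38 (SE 0.36, 2.60-fold, adjusted p = 0.155). The unadjusted p-values from limma were 0.0289, 0.00252 and 0.00423. Of all tested probes, 7.00% were higher in every pair at day 5 and 8.36% at day 30.

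The downstream probe of BCL2A1 gave the same picture, with changes of 1.09, 0.69 and 1.29 (SE 0.47, 0.17 and 0.29, unadjusted p = 0.0499, 0.00421 and 0.00183 from limma). Its lowest, median and highest levels were -0.46, 1.77 and 2.15 before irradiation, 1.22, 2.67 and 2.83 at day 2, 0.30, 2.34 and 2.81 at day 5, and 0.73, 2.26 and 4.41 at day 30. Over the 20 arrays the levels of the 2 probes correlated with r = 0.99, a description of 2 probes read on the same arrays. In the order of group means BCL2A1 went from pre-irradiation to day 5, day 2 and day 30. Day 5 and day 2 did not differ beyond their spread (-0.38, 95% interval -1.42 to 0.66, for the upstream probe), and neither did day 2 and day 30 (0.24, -0.93 to 1.40).

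The size of the BCL2A1 change rested on a few arrays. Without replicate 3 the change of the upstream probe at day 2 was 0.69, and without replicate 2 it was 1.58 with a p-value of 0.00284 and an adjusted p of 0.0924 from limma, which passes both thresholds, as 3.41% of all probes then did. With normexp background correction the day 2 changes of the upstream and downstream probes were 0.54 and 0.52 (unadjusted p = 0.157 and 0.223). At day 30 the change lay between 0.97, without replicate 1, and 1.63, without replicate 2. Without the pairing the p-value of the upstream probe at days 5 and 30 was 0.219 and 0.0707. At day 30 both BCL2A1 probes passed both thresholds with normexp background correction, with the deposited log2 values, and with probes above background on every array only. In these settings 4.50% of 19961, 5.91% of 5653 and 4.24% of 15339 probes passed both, against 0.02% of 19961 in the processing used here. The FDR is taken over the probes tested in each setting. Slides do not hold all arrays of 1 replicate number together, though some same-numbered arrays share a slide. Within the 5 slides the day 30 difference ran from -1.41 to 5.09, with 4 of 5 above 0 and an SE of 0.83 with slide as a block. At day 5 it ran from -1.58 to 2.78, with 4 of 5 above 0. There the SE with slide as a block was 0.57 and the unadjusted p 0.218 from limma. The summed level of the neutrophil markers, in multiples of the 75th percentile signal, ranged from 156 to 558 before irradiation, 368 to 1224 at day 2, 304 to 914 at day 5 and 427 to 1766 at day 30. That of the monocyte markers ranged from 96.3 to 268, 178 to 368, 101 to 318 and 184 to 386. Both lists were higher on each day, as BCL2A1 was, with all 6 measured monocyte markers higher on average each day, and their part in the result was not tested.

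BCL2 gave a lower signal at day 30 in its variant beta probe. This probe had levels of 1.63, 1.57, 1.46, 1.56 and 1.27 before irradiation in replicates 1 to 5, then 1.5, 1.92, 1.17, 1.42 and 1.0 at day 2 and 1.75, 1.61, 1.49, 1.30 and 0.17 at day 5. At day 30 they were 0.11, 0.21, 0.35, 1.30 and -0.47. Replicate 4 at day 30 was the only one of its group to reach into the pre-irradiation range, and replicate 5 was already low at day 5. The change at day 30 was -1.20 (SE 0.23, 95% interval -1.73 to -0.66, 2.29-fold lower, unadjusted p = 0.000753, adjusted p = 0.127 from limma), and the signal was lower in 5 of 5 pairs. All pairs pointed down for 9.52% of all tested probes at day 30.

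At day 2 and day 5 the variant beta probe had a change of -0.10 (95% interval -0.46 to 0.27) and -0.23 (-0.72 to 0.25). Day 30 was lower than day 2 by a change of -1.10 (SE 0.25, unadjusted p = 0.00278, adjusted p = 0.307 from limma) and lower than day 5 by a change of -0.97 (SE 0.26, unadjusted p = 0.00523, adjusted p = 0.587), each in 5 of 5 pairs. All pairs pointed down for 6.29% and 5.50% of all tested probes in these 2 comparisons. The group means were lower at each later time, and the first 3 did not differ beyond their spread. Within the 5 slides the day 30 difference ran from -2.03 to -0.27, and without any 1 replicate it lay between -1.43 and -1.06 with p-values from 0.000115 to 0.00393. It passed both thresholds in 5 of 11 other ways of processing, with all 20 arrays in 1 fit, normexp background correction, the deposited log2 values, an intensity trend in the spread, or a table limited to probes measured above background on every array. In these 5 settings 1.19%, 4.50%, 5.91%, 2.02% and 4.24% of the probes tested passed both thresholds, against 0.02% in the processing used here. The third share is of 5653 probes, the last of the settings of 15339, and the others of 19961.

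The variant alpha probe of BCL2 did not show this. Its levels were -0.41, -0.31, -1.95, -1.63 and -1.28 before irradiation and -1.85, -0.26, -1.40, -0.48 and -1.10 at day 30, so that the pair differences ran from -1.44 in replicate 1 to 1.15 in replicate 4. The change at day 30 was 0.09 (95% interval -0.67 to 0.85). At day 2 and day 5 it was 0.43 (-0.21 to 1.07) and 0.23 (-0.21 to 0.66). The change of the variant beta probe minus that of the variant alpha probe at day 30 was -1.29 (SD 0.71, n = 5 pairs, below 0 in 5 of 5), with p = 0.0625 in an exact two-sided sign-flip test, the smallest that 5 pairs allow. This was 1 of 27 such comparisons between probes of 1 gene, chosen after the values were seen, and its p adjusted over them was 0.5625. Over the 20 arrays the levels of both probes correlated with r = 0.36, as a description. Which transcripts account for the difference was not tested.

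Lymphocytes, in which BCL2 is known for survival, were followed by their markers. The summed level of T and NK cell markers ranged from 236 to 333 before irradiation, 150 to 208 at day 2, 121 to 362 at day 5 and 171 to 315 at day 30. Of these 14 markers, 14, 14 and 11 were lower at days 2, 5 and 30, and the variant beta probe of BCL2 had changes of -0.10, -0.23 and -1.20. Of 6 measured B cell markers, 6, 6 and 5 were lower at days 2, 5 and 30, with medians of -0.55, -0.49 and -0.46 and summed levels of 75.7 to 143, 48.1 to 92.7, 61.6 to 84.7 and 51.8 to 113. The part of these cells in the day 30 value was not tested.

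**Figure D2:**
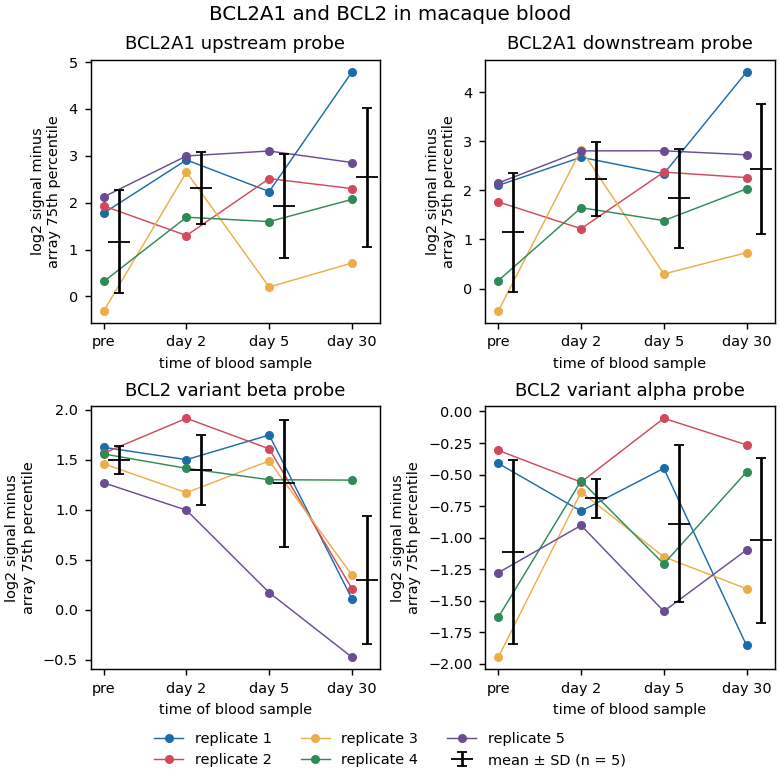
Levels (y axis, log2 signal minus the array's 75th percentile) of the BCL2A1 and BCL2 probes in the 4 groups (x axis). Colored lines join the arrays of 1 replicate number, and black bars give mean ± SD of 5 arrays. BCL2A1 lies higher at day 30 in all 5 lines of both probes, the variant beta probe of BCL2 lies lower in all 5, and the lines of the variant alpha probe cross.

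MCL1, the short-lived guardian on which neutrophils depend, was read by 1 probe. Its levels were 3.0, 3.08, 2.74, 2.93 and 2.76 before irradiation and 3.86, 2.99, 3.69, 2.81 and 3.13 at day 2. Replicates 1 and 3 were well above all control arrays at day 2, replicate 5 was just above them, and replicates 2 and 4 lay within their range. The change was 0.39 at day 2 (95% interval -0.09 to 0.87, unadjusted p = 0.0978, adjusted p = 0.418 from limma), -0.07 at day 5 (-0.49 to 0.36) and 0.03 at day 30 (-0.45 to 0.50). With normexp background correction the day 2 value was -0.15. The levels ran from 2.35 to 3.38 at day 5 and from 2.34 to 3.64 at day 30, a wider spread (SD 0.45 and 0.48) than before irradiation (SD 0.15).

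The changes of the 3 guardians were set against each other pair by pair, as 9 comparisons with an exact two-sided sign-flip test, in which 5 pairs cannot give a p below 0.0625. At day 30 the upstream probe of BCL2A1 had a change 2.57 higher than the variant beta probe of BCL2 (SD 1.12, n = 5 pairs), in 5 of 5 pairs, with exact p = 0.0625 and p = 0.1125 adjusted over the 9. It had a change 1.35 higher than MCL1 (SD 0.80), and MCL1 had one 1.22 higher than BCL2 (SD 0.86), each in 5 of 5 pairs with the same p-values. With the variant alpha probe for BCL2 the first of these differences was 1.28 and the last was -0.07. At day 5 BCL2A1 had a change 0.99 higher than BCL2 and 0.83 higher than MCL1 (SD 0.77 and 0.64), again in 5 of 5 pairs with exact p = 0.0625. At day 2 the differences between BCL2A1 and BCL2, BCL2A1 and MCL1, and MCL1 and BCL2 were 1.24, 0.75 and 0.49 (SD 1.5, 1.01 and 0.69), each above 0 in 4 of 5 pairs, with replicate 2 the exception. MCL1 and BCL2 at day 5 differed by 0.17 (SD 0.70), above 0 in 2 of 5 pairs. With the variant alpha probe BCL2A1 had a change 0.71 higher than BCL2 at day 2 and 0.54 higher at day 5 (exact p = 0.1875 and 0.125), so that the comparisons with BCL2 depended on the probe on each day.

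BCL2L11 encodes BIM, the BH3-only protein that removes lymphocytes and neutrophils deprived of survival factors, and its 3 probes gave different values. The variant 1 probe had levels of 3.13, 2.86, 2.51, 2.85 and 2.72 before irradiation and 3.55, 2.91, 3.16, 3.22 and 3.51 at day 30. All 5 pairs were higher, though replicate 2 by 0.06 only. The change was 0.46 (SE 0.18, 1.37-fold, unadjusted p = 0.0308, adjusted p = 0.243 from limma). At day 2 and day 5 it was 0.02 (95% interval -0.39 to 0.44) and 0.01 (-0.42 to 0.44), and with normexp background correction the day 2 value was -0.40. Day 30 was also higher than day 2 by 0.43 and than day 5 by 0.45, each in 5 of 5 pairs (unadjusted p = 0.0117 and 0.0337 from limma). Of all tested probes, 7.62% and 4.70% were higher in every pair in these 2 comparisons, and 8.36% from pre-irradiation to day 30. Without replicate 5 the change from pre-irradiation at day 30 was 0.37, with an adjusted p of 0.418 from limma.

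The probes of BCL2L11 further upstream gave values below 0 at day 30. The variant 9 probe, whose printed end holds AATAAA, had a change of -0.34 (95% interval -0.78 to 0.09) and was lower in 4 of 5 pairs. Its levels were 1.20, 0.80, 1.20, 0.82 and 0.86 before irradiation and 0.35, 0.76, 0.74, 0.85 and 0.46 at day 30, with replicates 1, 3 and 5 clearly lower. The 5′ probe had a change of -0.44 (-0.95 to 0.07), also lower in 4 of 5 pairs, with levels of 1.93, 0.55, 1.56, 1.16 and 1.05 before irradiation and 0.79, 0.24, 1.71, 1.07 and 0.26 at day 30. The variant 1 probe had a change 0.89 higher than the 5′ probe and 0.80 higher than the variant 9 probe (SD 0.62 and 0.54), each in 5 of 5 pairs with exact p = 0.0625 and p = 0.5625 adjusted over the 27. At day 2 and day 5 the 3 probes had changes between -0.26 and 0.09, each with an interval that holds 0. Over the 20 arrays the variant 1 probe correlated with the variant 9 probe with r = -0.46 and with the 5′ probe with r = -0.21. The variant 9 and 5′ probes correlated with r = 0.55, all as a description.

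BID, which links death receptors to mitochondria once caspase-8 has cleaved it, was higher at day 2 and day 30 in both of its probes on average. The probes (A_33_P3227041 at chr22:18218265-18218324 and A_24_P187948 at chr22:18218182-18218241, minus strand) start at bases 1100 and 1183 of the same transcript. The downstream one had levels of 1.54, 0.86, 0.88, -0.27 and 1.0 before irradiation, 1.84, 0.82, 2.38, 1.56 and 1.99 at day 2, 2.17, 1.52, 1.05, -0.01 and 1.09 at day 5, and 1.85, 1.67, 1.84, 1.73 and 1.24 at day 30. Replicate 4 was far below the others before irradiation and at day 5, and the groups overlap. The changes were 0.92 at day 2 (SE 0.28, 1.89-fold, adjusted p = 0.224 from limma, 4 of 5 pairs higher), 0.36 at day 5 (SE 0.16, adjusted p = 0.444, 5 of 5) and 0.86 at day 30 (SE 0.27, 1.82-fold, adjusted p = 0.182, 5 of 5). Of all tested probes, 7.00% and 8.36% were higher in every pair at days 5 and 30. Without replicate 4 the changes at days 2 and 30 were 0.69 and 0.58, and with normexp background correction the change at day 2 was 0.51 (unadjusted p = 0.105 from limma).

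The upstream probe of BID had changes of 0.49, 0.21 and 0.40 at days 2, 5 and 30 (SE 0.16, 0.16 and 0.19). The unadjusted p-values from limma were 0.0184, 0.223 and 0.0619. Its levels were 3.74, 3.27, 3.84, 3.10 and 3.51 before irradiation, 4.43, 3.27, 4.39, 3.53 and 4.28 at day 2 and 4.44, 3.44, 3.81, 3.83 and 3.93 at day 30, and ran from 3.48 to 4.02 at day 5. Replicates 1, 3 and 5 were clearly higher at day 2, while replicate 2 stayed at the same level. With normexp background correction the day 2 change of this probe was -0.06 in place of 0.49. Within slides the downstream probe was higher at day 30 on 5 of 5 slides (0.14 to 1.52), and the upstream probe at day 2 on 3 of 5 (-0.57 to 1.33). The neutrophil and monocyte markers given beside BCL2A1 were higher on the same days, and their part was not tested.

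**Figure D3:**
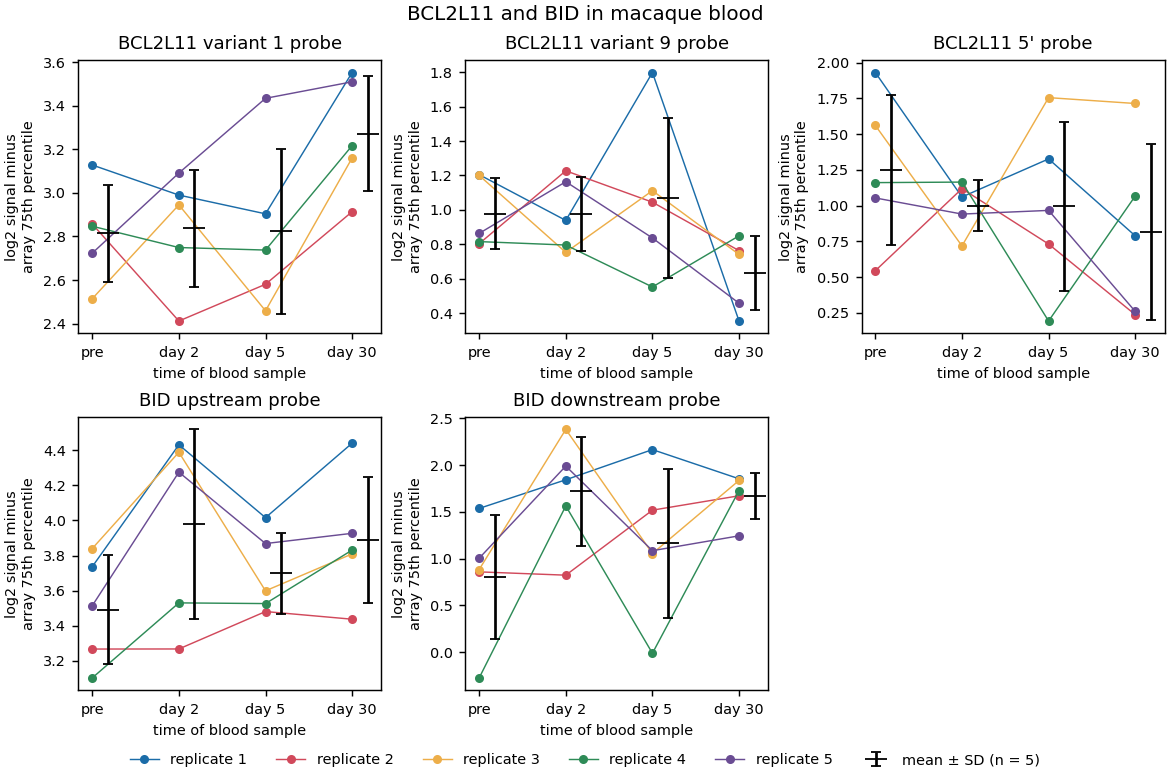
Levels (y axis, log2 signal minus the array's 75th percentile) of the BCL2L11 and BID probes in the 4 groups (x axis), with lines for replicate numbers and bars for mean ± SD of 5 arrays. The variant 1 probe of BCL2L11 is higher at day 30 in all 5 lines, its variant 9 and 5′ probes are lower in 4 of 5, and the downstream BID probe is higher at day 30 in all 5.

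BAD, a BH3-only protein held inactive by phosphorylation when growth factors are present, was read by the probe A_33_P3262043 (chr11:64037483-64037542, minus strand). Its lowest, median and highest levels were -1.03, -0.28 and -0.24 before irradiation, -1.33, -0.51 and -0.45 at day 2, -0.68, -0.60 and -0.43 at day 5, and -0.63, -0.57 and -0.26 at day 30. All groups overlap and their means lie within 0.17 of each other. The changes were -0.15, -0.04 and 0.02, with 95% intervals of -0.58 to 0.27, -0.43 to 0.35 and -0.41 to 0.45.

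BAK1, the pore-forming effector, was read by the probe A_23_P145357 (chr6:33540585-33540644, minus strand). Its levels were 2.41, 2.01, 2.81, 1.89 and 2.07 before irradiation and 2.96, 2.2, 2.77, 1.93 and 2.77 at day 2, where replicates 1 and 5 were clearly higher. The change at day 2 was 0.29 (95% interval -0.10 to 0.68, adjusted p = 0.461 from limma), and -0.15 with normexp background correction. At days 5 and 30 it was -0.01 (-0.41 to 0.39) and 0.07 (-0.39 to 0.52), and in both cases 4 of 5 pairs were slightly higher while replicate 3 differed by -0.63 and -0.66.

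BCL2L13 was read by 3 probes on the plus strand of chromosome 22 and had mean changes within 0.18 of 0 in all of them, with intervals that hold 0. The probe at the 3′ end (A_23_P102965, chr22:18211363-18211422, printed in 10 spots) had changes of 0.01, -0.18 and -0.04 at days 2, 5 and 30, and its 95% intervals lay between -0.53 and 0.45. The 5′ probe (A_24_P409494, chr22:18138526-18138585) had changes of 0.01, 0.07 and 0.10. The third (A_24_P410389, chr22:18209937-18209996) was dim, being well above background on 18 of 20 arrays and on 3 of the 5 before irradiation, and it had changes of 0.13, 0.07 and 0.06. At day 5 the 3′ end probe was lower in 5 of 5 pairs, with differences from -0.51 to -0.03, and the unadjusted p-value from limma was 0.254.

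**Figure D4:**
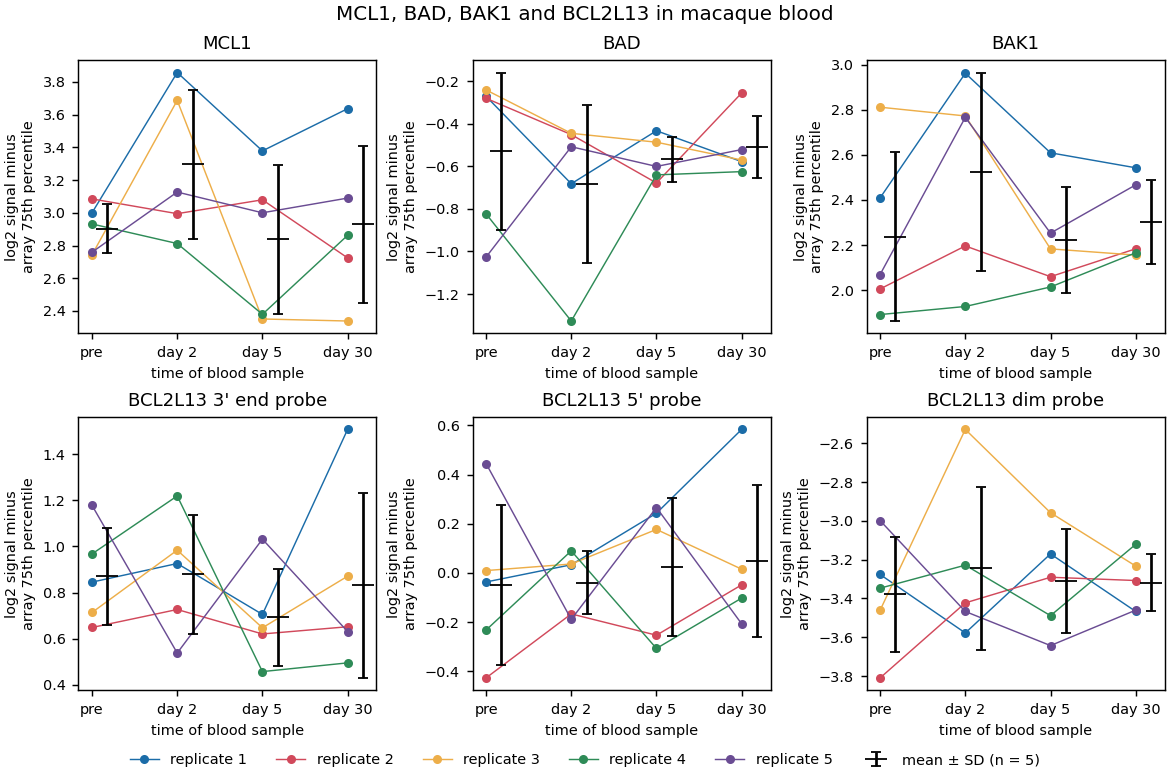
Levels (y axis, log2 signal minus the array's 75th percentile) of MCL1, BAD, BAK1 and the 3 BCL2L13 probes in the 4 groups (x axis), with lines for replicate numbers and bars for mean ± SD of 5 arrays. The ranges of the groups overlap in every panel, and MCL1 spreads more after irradiation (SD 0.45 to 0.48) than before it (SD 0.15).

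Genes that act with the BCL2 family were read with 1 probe each, the brightest of those tested. Of the other BCL2 family genes 14 of 17 were tested, and BCL2L10, BCL2L14 and BOK were too dim. Of these 14 genes 8, 10 and 8 were higher on average at days 2, 5 and 30, with median changes of 0.20, 0.22 and 0.09, and 0 were called on any day (0.0551%, 0% and 0.02% of all probes). BBC3 (PUMA), a BH3-only activator of apoptosis, had a change of 0.99 at day 2 (SE 0.21, unadjusted p = 0.00171, adjusted p = 0.157 from limma), 0.47 at day 5 and 0.30 at day 30, each in 5 of 5 pairs. PMAIP1 (NOXA), the BH3-only partner of MCL1, had the highest change of this list at day 30 (0.63, SE 0.19, 5 of 5 pairs). It stood at 0.68 at day 2 and 0.57 at day 5, higher in 5 of 5 pairs each time. Of all tested probes, 6.50%, 7.00% and 8.36% were higher in every pair at days 2, 5 and 30. HRK had the lowest at day 2 (-1.02, SE 0.27, lower in 5 of 5 pairs). Of all tested probes, 7.43% were lower in every pair at day 2. BCL2L1 (BCL-XL), which keeps platelets alive, had a change of 0.62 at day 5 and -0.40 at day 30 (SE 0.43 and 0.40), the highest and lowest of the list on these days, and BNIP3 had the lowest at day 5 (-0.36, SE 0.22). The summed level of the platelet markers ranged from 38.1 to 145 before irradiation, 149 to 545 at day 2, 83.3 to 234 at day 5 and 69.2 to 109 at day 30, so that the day 2 arrays lay above all arrays before irradiation. That of the erythroid markers ranged from 1412 to 1688, 631 to 2408, 1171 to 2792 and 488 to 2649. The part of platelets and erythroid cells in the BCL2L1 values was not tested.

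All 15 genes of the apoptosome and caspase list were tested, and 7, 7 and 9 of them were higher on average at days 2, 5 and 30, with medians of -0.03, -0.03 and 0.17. HTRA2, a mitochondrial protease, led at day 5 with 0.59 (SE 0.16). The lowest values were those of DFFB at day 2 (-0.34, SE 0.22) and of CASP2 at days 5 and 30 (-0.24 and -0.68, SE 0.21 and 0.26).

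The 7 inhibitors of apoptosis had medians of 0.25, 0.04 and 0.27, and all 7 were higher on average at day 30. NAIP, an inflammasome sensor of this family, led on each day with 1.02, 0.76 and 1.11 (SE 0.28, 0.18 and 0.26, unadjusted p = 0.00669, 0.00343 and 0.00259 from limma), in 5 of 5 pairs each time. Of all tested probes, 6.50%, 7.00% and 8.36% were higher in every pair at days 2, 5 and 30. BIRC3 had the lowest value at days 2 and 30 (-0.20 and 0.17), and BIRC6 at day 5 (-0.19).

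Of the death receptors and adaptors 8 of 9 were tested, RIPK1 being too dim, with medians of 0.15, 0.07 and 0.26. FASLG, the ligand of FAS on cytotoxic cells, had a change of -1.55 at day 2 (SE 0.21, unadjusted p = 9.31e-05, adjusted p = 0.114 from limma), lower in 5 of 5 pairs. It stood at -0.63 at day 5 and 0.26 at day 30. Of all tested probes, 7.43% were lower in every pair at day 2. TNFRSF10B, a TRAIL receptor, had a change of 1.04 at day 2 and 0.83 at day 5 (SE 0.31 and 0.16, adjusted p = 0.219 and 0.281) and of 0.07 at day 30. The highest value at day 30 was that of TNFRSF10A (0.39) and the lowest that of TNFSF10 (-0.09). The T and NK cell markers had their lowest median change at day 2, and their part in the FASLG value was not tested.

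Among the 12 regulators of BCL2 proteins the medians were 0.05, -0.05 and 0.17. FOXO3, a transcription factor of BCL2L11 and BBC3, led on each day with 0.70, 0.69 and 0.97 (SE 0.18, 0.22 and 0.35), in 5, 4 and 4 of 5 pairs (adjusted p = 0.182, 0.353 and 0.229 from limma). HUWE1, the ubiquitin ligase of MCL1, had the lowest value at day 5 (-0.35). In none of these 5 lists was a gene called against pre-irradiation on any day.

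**Figure D5:**
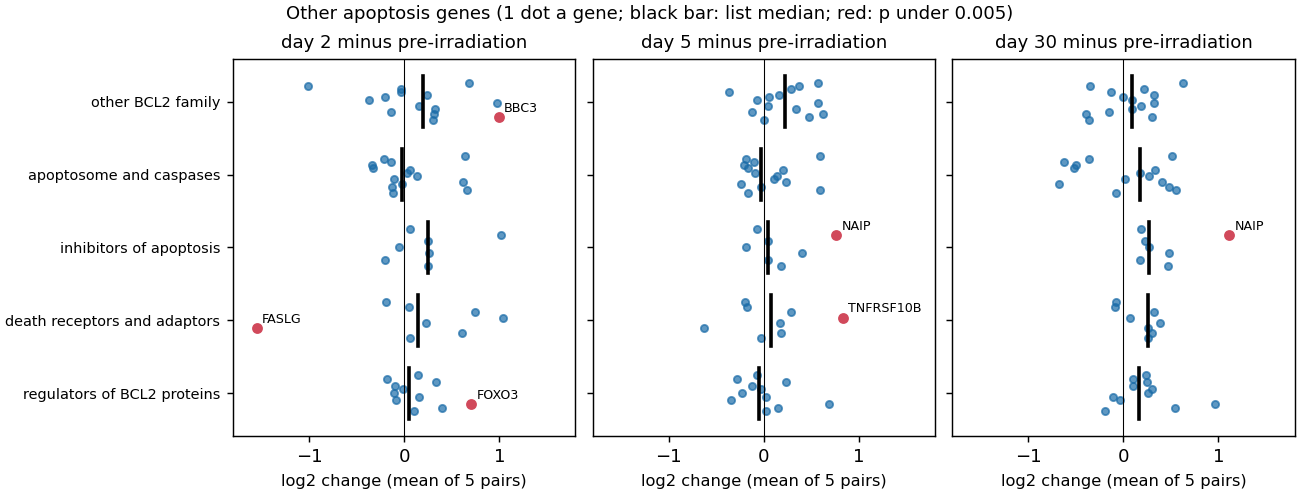
Log2 change from pre-irradiation of the other apoptosis genes at days 2, 5 and 30 (x axis, mean of 5 pairs), with 1 dot per gene, 1 row per list, black bars for list medians and red dots with names for an unadjusted p-value under 0.005. List medians lie between -0.05 and 0.27, and the named genes are FASLG, BBC3 and FOXO3 at day 2, NAIP and TNFRSF10B at day 5, and NAIP at day 30. Medians are over all tested genes of a list, of which 2 are not drawn.

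The genes whose levels were most like those of each BCL2 family gene were sought among 15322 probes measured above background on all 20 arrays, as a description over arrays that share animals and groups. For the upstream probe of BCL2A1 they were RGS2, NT5DC1 and NDEL1 (Pearson r = 0.93 for each). For the upstream probe of BID they were TLR2, DYNLT1 and CKLF (r = 0.95, 0.93 and 0.93), and for BAK1 they were CD274, TRAFD1 and TAP1 (r = 0.92, 0.90 and 0.88). The variant beta probe of BCL2 was most like TIMM22, PTPRCAP and TMEM238 (r = 0.88, 0.87 and 0.84). MCL1 was most like PPP1R18, NUAK2 and MAPKAPK2 (r = 0.89, 0.87 and 0.87), and the variant 1 probe of BCL2L11 most like CREM, MED13 and MAPK1IP1L (r = 0.87 for each). Likeness was weaker for BAD, with IGFLR1, MRPL28 and ND3 (r = 0.82, 0.80 and 0.78), and for the 3′ end probe of BCL2L13, with GYS1, CORO1C and UVSSA (r = 0.79, 0.77 and 0.75).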

How the data were processed

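The authors isolated PAXgene blood RNA, depleted globin transcripts and hybridized it to Agilent Whole Human Genome 4x44K v2 arrays. For each array they deposited the scanner table from Feature Extraction (12.0.2.2 per the file headers, 10.7 per the processing notes), whose processed signal is a background-subtracted intensity not normalized between arrays, and a table of log2 values of 5884 probes, of which 8 are BCL2 family probes. Control spots and outlier spots were left out, spots of 1 probe were averaged as log2 values, and each array was scaled by subtracting its 75th percentile. Probes well above background on at least 5 arrays were tested wherever at least 4 pairs had a value, with limma 3.58.1 (R 4.3.3), on the arrays of the 2 groups compared with the replicate number as a block. Same-numbered arrays deviated together in most of 30 pairs of arrays (median r = 0.29, range -0.22 to 0.70), against a median of -0.05 for other numbers, and 25 of the 30 exceeded 0.1. The pair with the highest r and that with the lowest each shared a slide. Named are all 8 genes, and of the other apoptosis genes those with a p-value under 0.005 and those with the highest and lowest change of each list and day, save 2 genes that, like 1 probe sequence, are not reported here. The members and lists were chosen with earlier results of these data known. The alternatives were median scaling, quantile normalization, normexp (offset 50), the deposited log2 values, all probes, those above background on all 20 arrays, a fit without the replicate block, 1 fit of all 20 arrays, slide as a block, an intensity trend, a paired test run probe by probe, and each replicate left out. The number of arrays limits the precision, and dim probes lie close to background. The limma p-values with the replicate block rest on the spread of pair differences, in part borrowed from other probes, among these samples only. Tables came from pandas 2.3.3 under Python 3.11.15, and figures from matplotlib 3.10.9.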

Additional observations from a re-analysis of the deposited data

Results flagged for a closer look

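Among 60 groups of 5 arrays, 1 for each tested probe and group, 4 held an array far from the others by Dixon's test, and chance gives about 1 in 20. The variant beta probe of BCL2 had its lowest day 5 level, 0.17, in replicate 5, where the other 4 arrays lay from 1.30 to 1.75. The 5′ probe of BCL2L13 had its highest day 30 level, 0.58, in replicate 1, above 0.02 in the next. BAD had its lowest day 2 level, -1.33, in replicate 4, and its highest day 30 level, -0.26, in replicate 2. The change of the variant beta probe of BCL2 differed between days 30 and 2 by -1.10 (unadjusted p = 0.00278, adjusted p = 0.307 from limma, lower in 5 of 5 pairs).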

How the results depend on the processing

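The number of BCL2 family probes with a p-value under 0.005 depended on the processing. At day 5 against pre-irradiation it was 2, and 0 without the replicate block, with slide as a block, with all 20 arrays in 1 fit, with median scaling, with no filter on dim probes, with the deposited log2 values or with a paired test run probe by probe. With each replicate left out it ran from 0 to 2. At day 30 it was 3, and 1 without the replicate block, with slide as a block or with all 20 arrays in 1 fit, 0 with the paired test run probe by probe, and 1 to 3 with each replicate left out. At day 2 it was 0, and 0 to 2 with each replicate left out, the 2 being BCL2A1 and BID without replicate 2. From day 2 to day 30 it was 1, and 0 with normexp background correction or slide as a block, and 0 to 1 with each replicate left out. From day 5 to day 30 it was 0, and 1 with normexp, all-array probes, all 20 arrays in 1 fit, slide as a block or an intensity trend, and 0 to 1 with each replicate left out. Counts over all 19961 tested probes also moved. At day 5 they were 321, and 56 without the replicate block, 71 with slide as a block and 284 with 1 fit. They were 283 with median scaling, 263 probe by probe, 238 of 34127 with no filter and 103 of 5676 with the deposited values. At day 30 they were 626, and 224 without the block, 130 with slide, 786 with 1 fit and 338 probe by probe. From day 2 to day 30 they were 299, and 183 with normexp and 148 with slide as a block. From day 5 to day 30 they were 124, and 212 with normexp and 286 with 1 fit. Slide as a block gave 75 there, an intensity trend 149 and all-array probes 107 of 15339. Counts over all probes with each replicate left out are not given. The change of BCL2A1 minus that of BCL2 at day 30 was 2.57, and 1.28 or 1.19 with the variant alpha probe and either BCL2A1 probe. The change of MCL1 minus that of BCL2 turned from 0.49, 0.17 and 1.22 at days 2, 5 and 30 to -0.0351, -0.29 and -0.0683 with that probe, and at day 5 ran from -0.13 to 0.31 with each replicate left out. The day 2 change of the upstream BID probe turned from 0.49 to -0.0637 with normexp. The cause of these differences was not tested. Over all tested probes, calls went from 11 to between 0 and 368 at day 2 and from 4 to between 0 and 899 at day 30 across the settings that kept every replicate. Normexp moved the median of all probes at day 2 from -0.02 to 0.12, and median scaling moved that of day 30 against day 5 from -0.02 to 0.16. The comparisons between probes of 1 gene were added after seeing the data. Median signal over local background was 1.68 to 2.46, which limits dim probes.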
